A study of Mus musculus with 6 samples.

Results

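Kruppel-like factors (KLFs) are zinc-finger transcription factors, and 10 of them, Klf2, Klf3, Klf4, Klf5, Klf6, Klf7, Klf9, Klf10, Klf13 and Klf15, were followed here by their symbols among the 24197 genes of a count table. Polyadenylated RNA was sequenced from stromal-vascular cells of the inguinal fat of C57BL/6 mice, the fraction of adipose tissue that holds progenitors and fibroblasts and lacks the lipid-filled adipocytes. Cells of both groups were grown in standard medium and carried a retrovirus, a puro control in 3 libraries (Puro) or one with Prdm16, a regulator of brown and beige fat cell identity, in another 3 (Prdm16). The labels give no sex or age of the mice, no viral promoter, no time after infection and no adipogenic induction. They do not say whether replicates were separate cultures, and the p-values thus cover only library-to-library spread, which may be technical.

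KLFs bind GC-rich and CACCC sequences through zinc fingers at the C-terminal end and differ in the cofactors that the rest of the protein recruits. In the usual grouping, Klf3, Klf8 and Klf12 bind the corepressor CtBP, Klf9, Klf10, Klf11, Klf13, Klf14 and Klf16 bind the corepressor Sin3, and Klf1, Klf2 and Klf4 to Klf7 act mostly as activators, while Klf15 and Klf17 stand outside these groups. In preadipocytes the family is known as a relay of promoters and brakes of adipogenesis: Klf4, Klf5, Klf6, Klf9 and Klf15 are described as promoting it, and Klf2, Klf3 and Klf7 as restraining it.

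Promoter windows were available for 8 of the 10 genes, from RefSeq on GRCm38.p6, and not for Klf5 and Klf10. Each window covered the 250 bases before the gene's start. The 8 windows held 59.2% to 78.4% G and C, against a median of 52.4% over all 32851 windows, and the GC box GGGCGG, a core of KLF and Sp binding sequences, was found on either strand in 7 of the 8, against 32.7% of all windows. CACCC, the other core, was in 6 of the 8 and in 52.0% of all windows. The E-box CACGTG, a sequence bound by clock and MYC-type factors that reads the same on both strands, was in 3 of the 8 (Klf4, Klf6 and Klf15), against 6.02% of all windows. A MEF2 site, searched by its name on both strands, was in the Klf2 window alone, as CTAAATTTAG, and in 2.92% of all windows. The TATA box TATAAA and the CArG box were in none of the 8, against 12.4% and 1.47% of all windows, and CCAAT was in 4 against 33.8%. Only the exact letters TATAAA were searched, and the Klf2 and Klf4 windows hold TATAAG, which was not counted. Matches of different motifs may overlap, and a match is a stretch of letters and not a site shown to be bound. The shares are over windows of any G and C content, and the part of base composition in these counts was not tested. The 4 windows with an E-box or MEF2 match are printed, and capitals mark the match. They belong to the 3 genes that fell and to Klf15, which rose. The windows of Klf3, Klf9 and Klf13, which rose too, and of Klf7 had neither motif. Motifs were chosen after the values were seen, and no link between a motif and the direction of change was tested.
Klf2, chr8:72318812-72319061, strand plus: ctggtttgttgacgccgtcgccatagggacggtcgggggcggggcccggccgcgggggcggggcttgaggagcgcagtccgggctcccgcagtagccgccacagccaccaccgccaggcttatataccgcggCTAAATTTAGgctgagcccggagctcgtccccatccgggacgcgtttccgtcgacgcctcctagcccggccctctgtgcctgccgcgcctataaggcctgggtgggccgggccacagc
Klf4, chr4:55532476-55532725, strand minus: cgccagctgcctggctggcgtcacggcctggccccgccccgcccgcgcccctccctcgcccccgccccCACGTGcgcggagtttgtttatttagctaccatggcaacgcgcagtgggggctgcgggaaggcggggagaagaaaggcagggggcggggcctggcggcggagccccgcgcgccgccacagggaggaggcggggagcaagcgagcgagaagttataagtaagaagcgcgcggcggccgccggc
Klf6, chr13:5861239-5861488, strand plus: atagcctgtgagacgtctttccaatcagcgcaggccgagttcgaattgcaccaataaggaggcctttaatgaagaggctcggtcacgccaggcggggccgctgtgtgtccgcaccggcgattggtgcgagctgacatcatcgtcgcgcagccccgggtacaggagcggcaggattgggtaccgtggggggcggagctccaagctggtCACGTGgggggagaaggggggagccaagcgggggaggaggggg
Klf15, chr6:90462326-90462575, strand plus: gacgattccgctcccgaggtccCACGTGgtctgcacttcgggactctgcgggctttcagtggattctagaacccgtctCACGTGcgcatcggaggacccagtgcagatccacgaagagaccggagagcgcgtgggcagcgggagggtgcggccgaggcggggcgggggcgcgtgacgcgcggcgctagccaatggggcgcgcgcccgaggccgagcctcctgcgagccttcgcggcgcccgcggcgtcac
Klf15 carried 2 E-boxes, which began 228 and 172 bases before the start, Klf4 had 1 at 182 bases and Klf6 had 1 at 43 bases. The MEF2 match of Klf2 began 118 bases before the start.

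The 6 libraries held 28169059 to 35798201 counts each, of which 3 counts, the upper limit for a gene with none, came to 0.0852 to 0.104 counts-per-million (CPM). CPM was computed on TMM-adjusted library totals, a scaling that centres the fold changes of all genes. Fold changes and summed levels are thus relative to that centre. A shift common to all genes would not be seen under this scaling or the other scalings used below. Prdm16 itself, the check of the labels, had 61 counts in the Puro libraries together and 260016 in the Prdm16 libraries. Replicate libraries differed by more than counting noise, with a chi-square per gene of 2.08 between Puro replicates 1 and 2, 7.99 to 8.85 between either of them and Puro replicate 3, and 3.67 to 8.01 among Prdm16 libraries. Of the markers of other cells, the endothelial Cdh5 and Cldn5 and the macrophage gene Adgre1 (listed as Emr1) had no count in any library. Summed fibroblast and progenitor markers ranged from 6030 to 6840 CPM in Puro, led by the collagen gene Col1a2. In Prdm16 they ranged from 1660 to 1780 CPM, led by Ly6a. Of the 10, 7 were lower and 2 higher. Lum could be called higher only and Thy1 lower only, since each passed the low-count filter through a single group. The part of this shift in the KLF results was not tested.

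All 10 genes had enough counts to be tested. The groups were compared by edgeR's quasi-likelihood test on all 13805 genes that passed a filter on low counts, with Benjamini-Hochberg adjustment over all of them and a threshold of 0.05. Of the 10, 6 rose with Prdm16 (Klf3, Klf5, Klf9, Klf10, Klf13 and Klf15), 3 fell (Klf2, Klf4 and Klf6), and Klf7 did not pass. Among all tested genes 75.6% passed, 37.5% higher and 38.0% lower, so that a changed gene was the rule in this comparison and 9 of 10 is close to that background. At an adjusted p of 0.01 the same 9 passed, against 66.6% of all tested genes. A change of 1 or more on the log2 scale was seen for 5 of the 10 and for 21.8% of all tested genes. The median log2 fold change of the 10 was 0.64, beside -0.00748 over all tested genes. Libraries of the groups did not overlap for 9 of the 10, against 77.6% of all tested genes (38.4% with Prdm16 higher, 39.2% with it lower). In a bulk sample, a lower level from fewer cells of a kind and from less RNA per cell cannot be told apart.

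**Figure D1:**
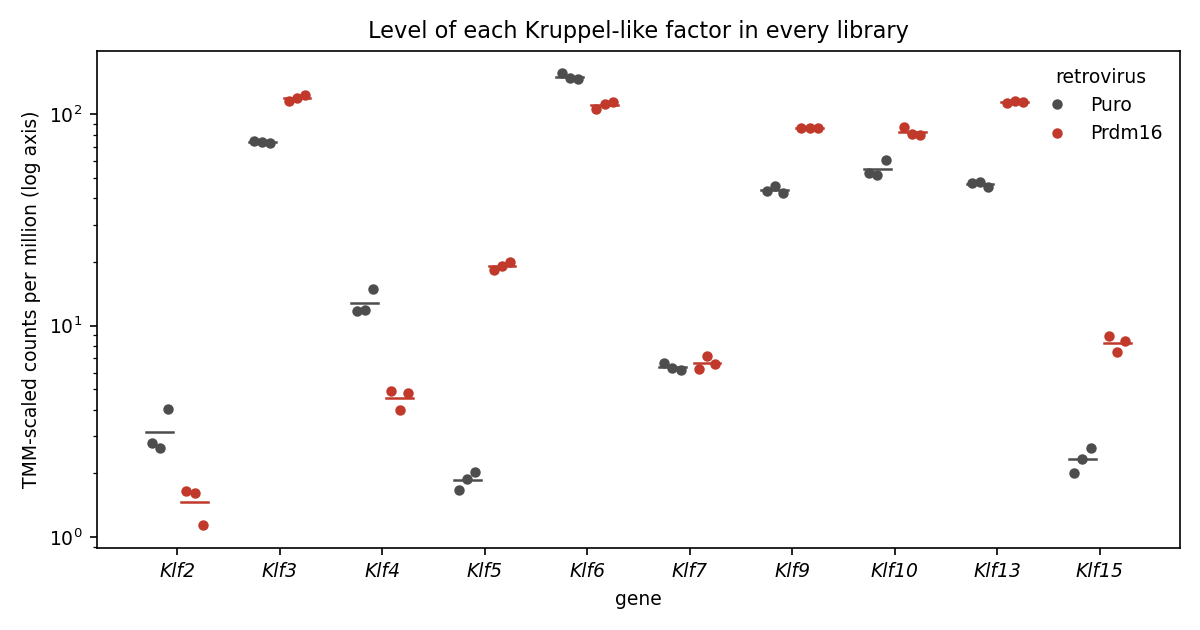
Level of each of the 10 genes in the 6 libraries, as TMM-scaled counts-per-million on a log axis; each point is a library and each short line the mean of 3. The groups are apart for every gene but Klf7, with Klf2, Klf4 and Klf6 lower and the other 6 higher in the Prdm16 libraries.

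Klf5, which activates Pparg during adipocyte differentiation and is known from epithelial crypts and remodelling smooth muscle, had the widest change of the 10. It stood at 1.68, 1.89 and 2.03 CPM in the Puro libraries, from 52, 66 and 68 counts, and at 18.4, 19.1 and 20.0 CPM in the Prdm16 libraries. Every Prdm16 library was far above every Puro library. Its log2 fold change was 3.36 ± 0.09 (SE), or 10.2-fold, with an adjusted p of 7.27e-11 by edgeR's quasi-likelihood test, and 4.82% of all tested genes had a wider one. Epithelial markers moved with it: their summed level went from between 0.452 and 0.656 CPM to between 34.2 and 36.2 CPM, with Krt18 the most abundant in Prdm16 and Esrp1 at 0 in every Puro library. The 6 tested of these 10 markers had at most 10 counts over the Puro group and passed the filter through the Prdm16 libraries, so they could be called in the higher direction only. The basal keratins Krt5 and Krt14, the simple keratin Krt8 and the epithelial regulator Grhl2 did not pass the filter, and none had over 8 counts in a group. The part of these genes in the Klf5 result was not tested.

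Klf4, an early activator in the adipogenic cascade and one of the reprogramming factors, was at 11.8, 11.8 and 14.9 CPM in the Puro libraries and at 4.89, 3.97 and 4.82 CPM in the Prdm16 libraries. The lowest Puro value was more than 2 times the highest Prdm16 value. It fell 2.80-fold (log2 fold change -1.48 ± 0.12, adjusted p = 5.84e-07).

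Klf2, known for quiescent endothelium and T cells and as a repressor of Pparg in preadipocytes, had the widest standard error of the 10, and 86, 92 and 135 counts in Puro and 58, 47 and 38 in Prdm16. These were 2.77, 2.64 and 4.02 CPM against 1.65, 1.62 and 1.14 CPM, with a coefficient of variation of 24.3% in Puro. The groups did not overlap, with Puro replicate 3 above the other Puro libraries. Klf2 fell with a log2 fold change of -1.10 ± 0.21 (adjusted p = 0.000563). Without Puro replicate 3 it was -0.88. The endothelial markers Cdh5 and Cldn5 were at 0 in all libraries, Emcn had 1 count over each group and Pecam1 16 over Puro and 10 over Prdm16. Summed endothelial markers went from between 12.5 and 13.3 CPM to between 22.1 and 23.1 CPM, most of it Egfl7 and Tek, with 1 of 3 tested of 8 higher. Macrophage markers summed to 14.2 to 15.4 CPM in Puro, led by Cd14, and to 8.36 to 8.63 CPM in Prdm16, led by Cd68. Of 8, 3 were tested and 2, Cd14 and Lyz2, were lower. Lyz2, with 146 counts over Puro and 3 over Prdm16, passed the filter through Puro and could be called lower only. Ptprc, Emr1, Csf1r, Mrc1 and Fcgr1 were too low to be tested. The part of the endothelial or macrophage markers in the Klf2 result was not tested.

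Klf6, an injury-responsive factor that represses the preadipocyte gene Dlk1, was the most abundant of the 10 in CPM in the Puro libraries, at 156, 149 and 146 CPM, and was at 106, 112 and 114 CPM in the Prdm16 libraries. The groups were separate, though the step was small beside that of Klf4. Its log2 fold change was -0.44 ± 0.04, or 1.36-fold lower (adjusted p = 2.46e-06). Dlk1, named after its values were seen, fell too, with a log2 fold change of -1.93 ± 0.19.

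Klf7, known from neurons and as a brake on adipogenesis, was at 6.64, 6.34 and 6.17 CPM in the Puro libraries and at 6.25, 7.15 and 6.56 CPM in the Prdm16 libraries. These ranges overlapped. The log2 fold change of 0.06 ± 0.09 did not pass (adjusted p = 0.570), and 91.0% of all tested genes had a wider one. In the GENCODE M21 annotation 3196 exonic bases of Klf7 lie opposite a long non-coding RNA, Gm26649, and as no strand setting is known for the counts, reads of the pair cannot be told apart.

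Klf3, the CtBP-binding repressor that was first described in red blood cells, was at 74.9, 73.6 and 72.7 CPM in the Puro libraries and at 116, 120 and 123 CPM in the Prdm16 libraries. All Prdm16 libraries lay above all Puro libraries. It rose with a log2 fold change of 0.69 ± 0.04, or 1.62-fold (adjusted p = 2.40e-08). An opposite-strand transcript, Gm20033, overlaps 404 of its exonic bases.

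The 3 Sin3-binding genes among the 10 all rose. Klf9, a factor induced by glucocorticoids and thyroid hormone, was at 43.4, 45.5 and 42.6 CPM in Puro and at 85.9, 86.3 and 86.4 CPM in Prdm16, where its coefficient of variation was 0.334%. Its log2 fold change was 0.98 ± 0.04, or 1.97-fold (adjusted p = 1.37e-09). Every Prdm16 value was above every Puro value. At 2499 to 3023 counts a library, counting error alone would give a wider spread than that seen in Prdm16. The spread is thus no measure of an even rise. Klf13, first known as an activator of the chemokine gene Ccl5 in T cells, was at 47.4, 47.5 and 45.1 CPM in Puro and at 112, 116 and 115 CPM in Prdm16. It rose with a log2 fold change of 1.29 ± 0.04, or 2.45-fold (adjusted p = 1.66e-10). Klf10, an early target of TGF-beta, was at 52.5, 51.5 and 61.0 CPM in Puro and at 87.4, 80.8 and 79.4 CPM in Prdm16. Puro replicate 3 was the highest Puro library and still below the lowest Prdm16 library. Klf10 rose with a log2 fold change of 0.59 ± 0.06, or 1.5-fold (adjusted p = 7.93e-06).

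Klf15, a glucocorticoid-induced factor of adipocytes, muscle and liver that activates the glucose transporter gene Slc2a4 and genes of amino acid breakdown, was at 2.0, 2.35 and 2.65 CPM in the Puro libraries, from 62, 82 and 89 counts. In the Prdm16 libraries it was at 8.89, 7.53 and 8.42 CPM. The lowest Prdm16 library was well above the highest Puro library. Klf15 rose with a log2 fold change of 1.82 ± 0.12, or 3.54-fold (adjusted p = 1.11e-07), the second widest of the 10. Adipocyte markers moved in the same direction, with a summed level of 104 to 122 CPM in Puro and 517 to 616 CPM in Prdm16, nearly all of it Fabp4, which rose. Adipoq and Cidec had 28 and 9 counts over the Puro group and 231 and 337 over the Prdm16 group, and were called higher. Both passed the filter through the Prdm16 libraries, so they could be called in the higher direction only. Plin1, Lep and Retn were too low to be tested. The part of the adipocyte markers in the Klf15 result was not tested.

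**Figure D2:**
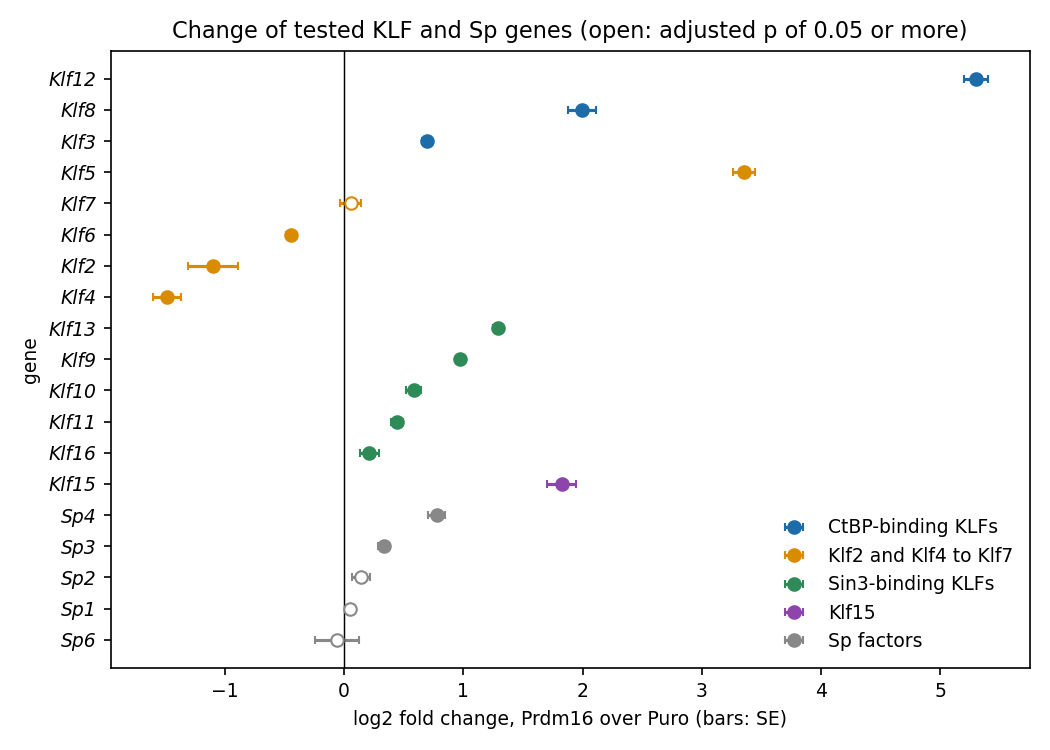
Log2 fold change (Prdm16 over Puro) of the tested KLF and Sp genes with SE bars from the edgeR fit, grouped by the cofactor that the KLFs bind; open circles had an adjusted p of 0.05 or more. Klf3, Klf8 and Klf12 and the 5 tested Sin3-binding genes lie to the right of 0, while Klf2, Klf4 and Klf6 lie to the left.

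The other genes of the family extended the list. Of 7, 4 passed the filter and all 4 rose. Klf12, a CtBP-binding repressor, went from 1.36, 0.860 and 1.04 CPM in Puro to 42.0, 43.9 and 41.8 CPM in Prdm16, a log2 fold change of 5.30 ± 0.10 or 39.4-fold (adjusted p = 4.44e-12). This was wider than for any of the 10. Klf8, the third CtBP-binding gene, went from 2.87, 2.87 and 2.53 to 12.5, 10.3 and 10.2 CPM (log2 fold change 1.99 ± 0.12, adjusted p = 3.60e-08). The Sin3-binding Klf11 rose with a log2 fold change of 0.45 ± 0.05 (adjusted p = 9.11e-06). Klf16 had 0.21 ± 0.08 (adjusted p = 0.0316) from groups that overlapped, and no longer passed without Puro replicate 1 (0.16), Puro replicate 2 (0.17), Prdm16 replicate 1 (0.21) or Prdm16 replicate 3 (0.19). Klf1, of red blood cells, had 16 counts over Puro and 20 over Prdm16, Klf17 had 1 and 0, and Klf14 had none.

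By cofactor group, 3 of 3 CtBP-binding genes rose (median log2 fold change 1.99), as did 5 of 5 tested Sin3-binding genes (median 0.586), while of the 5 tested genes in the activator group 1 rose, 3 fell and 1 did not pass (median -0.442). Over all tested genes 37.5% rose and 38.0% fell, and the 5 Sin3-binding genes include Klf16, whose call was lost in 4 of the 6 fits that left out a library. The grouping is textbook background applied after the values were known, the groups are small, and no test was made between them. Among the related Sp factors, which share the zinc-finger type, Sp3 (0.33 ± 0.05, adjusted p = 5.40e-05) and Sp4 (0.78 ± 0.07, adjusted p = 1.65e-06) rose. The log2 fold change was 0.05 ± 0.04 for Sp1, 0.14 ± 0.07 for Sp2 and -0.06 ± 0.18 for Sp6, none past the threshold. Sp2 passed without Puro replicate 3 (0.23, adjusted p = 0.00474). Sp7, Sp8 and Sp9 were too low to be tested, with 2 to 30 counts over a group, and Sp5 had no count.

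Levels of different genes were compared per transcript length, as CPM per kilobase of the longest RefSeq-matched transcript. In the Puro libraries Klf6 led at 35.6 ± 1.21 CPM per kilobase (SD, n = 3), followed by Klf10 at 18.1 ± 1.71, Klf3 at 14.1 ± 0.215, Klf9 at 9.77 ± 0.337, Klf13 at 7.30 ± 0.217 and Klf4 at 4.23 ± 0.587. Klf2, Klf15, Klf7 and Klf5 followed between 1.70 and 0.556 CPM per kilobase. Neighbours in this order had separate ranges except Klf15 and Klf7.

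In the Prdm16 libraries Klf10 and Klf6 overlapped at the top, at 27.1 ± 1.40 and 26.2 ± 0.973 CPM per kilobase (SD, n = 3). Klf3 at 22.9 ± 0.643, Klf9 at 19.2 ± 0.0641 and Klf13 at 17.9 ± 0.259 CPM per kilobase came next. Klf5 moved from rank 10 to rank 6, at 5.72 ± 0.244 CPM per kilobase, Klf4 from rank 6 to rank 8 and Klf2 from rank 7 to rank 10. Klf7 and Klf2 overlapped at the bottom. The order depends on the length used: per coding length Klf13 led in Prdm16 and Klf6 was the third, while Klf6 stayed at rank 1 in Puro.

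The summed level of the 10 genes was 93.1 ± 1.55 CPM per kilobase in Puro and 125.6 ± 0.599 in Prdm16 (SD, n = 3). Klf6 made up 38.2% ± 1.57 of that sum in Puro and 20.8% ± 0.708 in Prdm16 (SD, n = 3). Klf9 went from 10.5% ± 0.536 to 15.3% ± 0.0579, Klf13 from 7.84% ± 0.350 to 14.2% ± 0.200 and Klf5 from 0.597% ± 0.0535 to 4.55% ± 0.175 of the sum. Klf4 went from 4.54% ± 0.563 to 1.2% ± 0.132. Shares depended on the length used: per coding length Klf10 took 10.1% in Prdm16 in place of 21.6%, Klf13 took 13.4% in Puro and 23.1% in Prdm16, Klf4 took 2.20% and 0.551%, and Klf5 took 0.346% and 2.51%. Klf6 took 39.1% and 20.3%. A share falls when the others rise, so the shares are a description and were not tested.

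**Figure D3:**
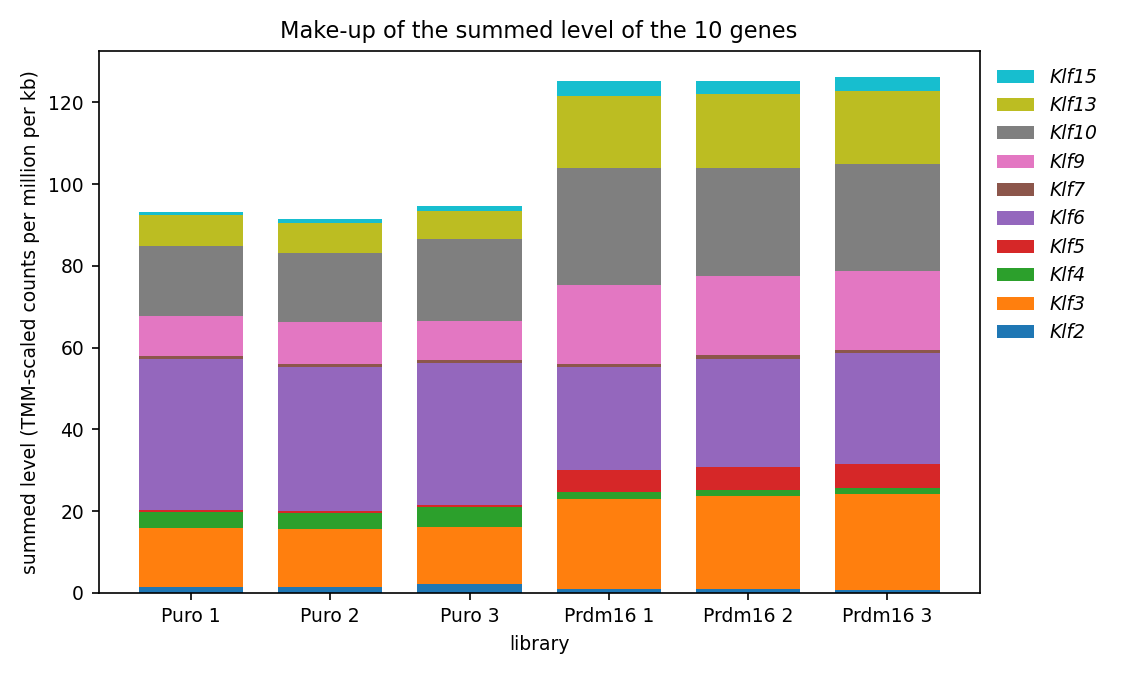
Summed level of the 10 genes in each library, in TMM-scaled counts-per-million per kilobase of the longest RefSeq-matched transcript, divided by gene. Klf6 is the largest block in the Puro bars, while the Klf3, Klf9, Klf10 and Klf13 blocks are taller in every Prdm16 bar.

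The 10 genes lie on 10 chromosomes. The median log2 fold change of the tested genes of a chromosome ranged from 0.493 on chromosome 14, which holds Klf5, and 0.39 on chromosome 19, which holds Klf9, to -0.375 on chromosome 15, which holds Klf10, among chromosomes with a member. With that median removed, Klf9 had a log2 fold change of 0.59 in place of 0.98 and Klf10 one of 0.96 in place of 0.59, and both still passed. Klf5 had 2.86 and Klf3, on chromosome 5, had 0.51.

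Klf5 and Klf12 are neighbours among the tested genes of chromosome 14. All 10 tested genes nearest to Klf5, 5 on each side, were higher in the Prdm16 libraries, with a median log2 fold change of 1.04 and a range of 0.161 to 5.30, the highest being Klf12. Beside Klf10, which rose, 8 of 10 neighbours were lower, 1 was higher and 1 did not pass, with a median of -0.432. Klf2, Klf4 and Klf6 fell, and 5 of 10 neighbours were higher beside each, with 2, 2 and 3 lower. Their neighbour medians were 0.0739, 0.216 and 0.113. Beside Klf9, 6 were higher and 4 lower, with a median of 0.22. Some neighbours, with standard errors of up to 0.45 beside Klf9 and 0.34 beside Klf10, may have passed the filter through a single group. Such genes could be called in 1 direction only, and this was not checked for the neighbours. For Klf13 the 10 neighbours divided into 4 higher, 4 lower and 2 that did not pass, and for Klf15 into 5, 2 and 3. For Klf3 they divided into 5, 5 and 0, and for Klf7 into 4, 5 and 1. Over all tested genes 37.5% were higher and 38.0% lower, and the neighbour counts were not tested against these shares. The part of the neighbouring genes' shift in the values of Klf5, Klf9 and Klf10 was not tested.

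**Figure D4:**
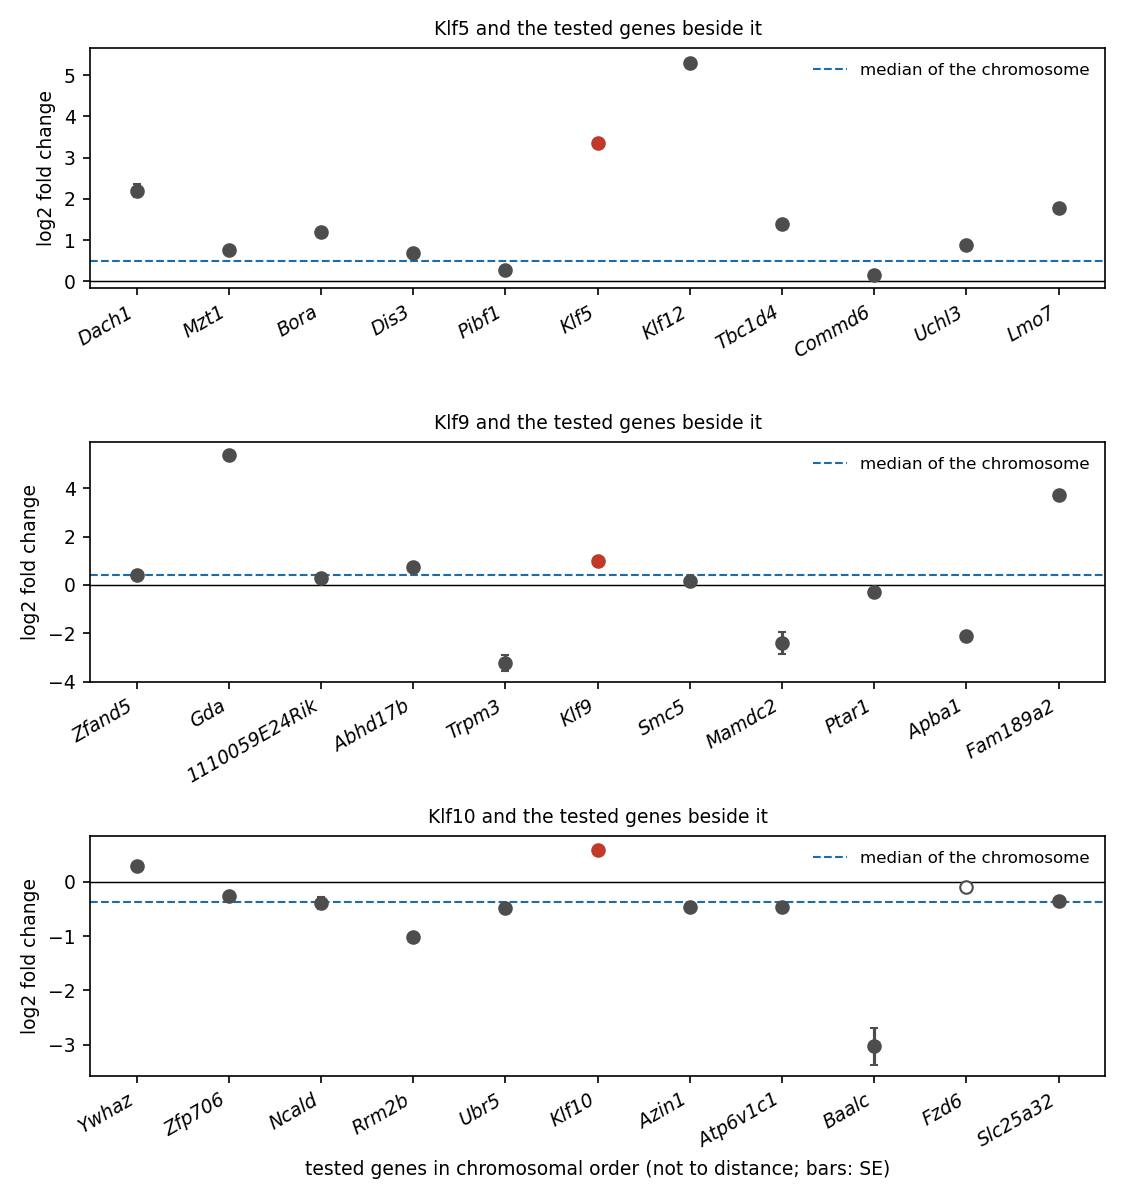
Log2 fold change (Prdm16 over Puro, SE bars) of Klf5, Klf9 and Klf10, in red, and of the 5 tested genes on each side, in chromosomal order and not to distance; the dashed line is the median of the chromosome and the open circle did not pass. Every gene around Klf5 is above 0, and Klf10 stands above all 10 of its neighbours.

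Genes of the pathways that feed into KLFs or act with them were read from lists. Over all tested genes 75.6% passed, 37.5% higher and 38.0% lower, with a median log2 fold change of -0.00748. The counts of every list below are to be read beside these shares. Of 12 cofactors and ubiquitin ligases, 8 rose, 2 fell and 2 did not pass (median log2 fold change 0.18). The deacetylase Hdac1 (0.51 ± 0.03), the corepressor Ctbp1 (0.47 ± 0.05), the acetyltransferase Crebbp (0.32 ± 0.04) and Wwp1, a ubiquitin ligase of Klf5 (0.34 ± 0.05), rose. All of these steps were smaller than that of Klf3 in the main fit. With chromosome medians removed Ctbp1 had 0.28, Crebbp 0.47, Wwp1 0.37 and Hdac1 0.54, beside 0.51 for Klf3.

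The 9 adipogenic genes tied to KLFs gave 4 higher, 4 lower and 1 that did not pass (median -0.116). Slc2a4, a target of Klf15, rose with a log2 fold change of 5.04 ± 0.16 and Gata2, a brake on adipogenesis, with 3.56 ± 0.08, whereas Gata3, a related brake, and Cebpa, a target that Klf3 represses, fell with -2.89 ± 0.11 and -2.22 ± 0.08. Pparg, on which Klf2, Klf5, Klf9 and Klf15 have been described to act, rose with 0.46 ± 0.04 and was named after its values were seen. In the list of amino acid and acetate metabolism linked to Klf15, 4 of 8 tested rose and 4 fell (median 0.0935). Dbt and Bcat2 of branched-chain amino acid breakdown had 0.62 ± 0.05 and 0.36 ± 0.05, and Bcat1, the cytosolic aminotransferase, and Gpt2 had -2.39 ± 0.07 and -0.69 ± 0.06. Among the list's other genes of branched-chain amino acid breakdown, higher and lower calls both occurred. Acss1 had no count.

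Inputs were mixed as well. In the glucocorticoid list 2 of 7 tested rose, 4 fell and 1 did not pass (median -0.558). Of the 4 that fell, 1 passed the filter through the Puro libraries and could be called lower only. The receptor Nr3c1 fell with a log2 fold change of -0.78 ± 0.04, from 211 to 123 CPM, while its targets Klf9 and Klf15 rose. With the median of its chromosome removed Nr3c1 had -0.39. Sgk1 (-1.24 ± 0.07) and Errfi1 (-0.56 ± 0.04) fell and Fkbp5 (0.21 ± 0.04) rose. Of 11 genes of TGF-beta input and its early targets, 4 rose, 4 fell and 3 did not pass (median 0.0581). The receptor Tgfbr2 (1.39 ± 0.03) and the early target Skil, a SMAD corepressor (0.56 ± 0.04), rose, as did the early target Klf10. The early target Smad7 (-1.24 ± 0.06), an inhibitor of the pathway, and the mediator Smad4 (-0.55 ± 0.04) fell. With chromosome medians removed Smad4 had -0.15 and still passed.

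The ERK5 and MEF2 list, the input that induces Klf2 and Klf4 in endothelium, had 3 higher, 2 lower and 2 that did not pass among 7 tested (median 0.0898). Mef2c rose with a log2 fold change of 2.38 ± 0.05 and Mef2a with 0.36 ± 0.04, while Klf2, whose promoter window holds the MEF2 letters, fell. The endothelial targets went apart, with S1pr1 higher (1.63 ± 0.04) and thrombomodulin, Thbd, lower (-1.64 ± 0.04). Of 14 immediate early genes, the class that Klf2, Klf4, Klf6 and Klf10 often join on serum or stress, 9 rose, 3 fell and 2 did not pass (median 0.543). Nr4a1 (3.13 ± 0.07), Egr3 (2.05 ± 0.13) and Atf3 (1.01 ± 0.07) rose and Myc (-1.08 ± 0.08) fell, and among the KLFs of that class Klf10 was the one that rose. With chromosome medians removed Myc had -0.70, Egr3 1.56, Atf3 0.99 and Nr4a1 3.51. All list members named here with a direction passed the edgeR test at an adjusted p below 0.05. No list was compared with other genes by a set test, and nothing here is shown to be particular to a list.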

How the data were processed

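The authors deposited raw counts per gene symbol. Per the submitters' processing notes, the tools were STAR, Subread and featureCounts and the build was mm9; versions, strand and shared-read settings are not given there.

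Groups came from the sample titles. In edgeR 4.0.16 (R 4.3.3), filterByExpr kept 13805 genes and removed 10392 with 0.0297% of the counts, libraries were TMM-scaled, and a two-sided quasi-likelihood test compared the groups. Each SE is the log2 fold change divided by the square root of F. The steps were tested on simulated counts. Lengths came from GENCODE M21 (GRCm38) transcripts matched to RefSeq, and gene order from RefSeq on GRCm38.p6, since mm9 was not used here. Floors cover counting error only.

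The members and lists were chosen with earlier results of these data known. The text names all 10 members, every tested KLF and Sp gene, and the 4 members of each further list with the smallest p, plus Pparg and Dlk1. One gene of the TGF-beta list is not reported here and was left out of its counts. Cofactor groups, neighbours and promoter motifs were added after the values were seen. Alternatives were other scalings (RLE, upper-quartile), filters, DESeq2 1.42.0, limma-voom (limma 3.58.1), a replicate block, Prdm16 left out, an adjusted p of 0.01, chromosome medians removed, each library left out, and other lengths. Protein sequences were not used.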

Additional observations from a re-analysis of the deposited data

How the results depend on the processing

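Under all 16 alternatives to the fit, 6 of the 10 KLFs were called higher and 3 lower, and each kept its direction and its side of the threshold. The counts over all genes ranged from 4605 to 5683 higher and from 4587 to 5466 lower. The same held for 46 of the 49 named genes, the exceptions being Klf16, Sp1 and Sp2. Klf16 also missed an adjusted p of 0.01. With chromosome medians removed Sp1 (0.42) and Sp2 (0.19) passed. Same-numbered libraries did not deviate together (correlations of -0.164, 0.0986 and -0.0674 for replicates 1, 2 and 3). Of the Puro libraries only replicate 2 correlated best with its own number, and no Prdm16 library did. A fit with the replicate number as a block called 5017 genes higher and 5072 lower, and 6 and 3 of the KLFs. Per coding length, 3 of 10 members had the same rank in Puro and 2 of 10 in Prdm16, and 18 of 20 shares of the summed level moved by more than 1 SD. With the mean transcript length 7 of 20 did, and with plain library totals none did, and in both all ranks were the same. Klf2 had 38 to 135 counts a library, and Klf5 and Klf15 had 52 to 89 in Puro.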
